A study of Mus musculus with 12 samples.

Results

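The acute phase response of the liver was followed through 34 genes in livers of A1cf -/- mice (KO) and wild-type mice (WT). They are named acute phase proteins together with the cytokine receptors and signalling genes that govern their production. All 34 names occur among the 46882 gene names of the deposited table, and all 34 were abundant enough to be among the 13706 genes tested. Each genotype had 6 libraries of whole liver from C57BL/6 mice of 6-8 weeks, described by the submitters as biological replicates, and no treatment is given. A1CF is an RNA-binding protein of liver and gut that was first known as the partner of the deaminase APOBEC1 in editing of Apob mRNA. How the A1cf allele was made, and in which cells it is lost, are not given in the sources used here. Libraries are named by genotype and by the number in their title, which no other library shares.

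When tissue is injured or infected, macrophages release interleukin-1, tumour necrosis factor and interleukin-6, and hepatocytes answer by secreting acute phase proteins into the blood. Interleukin-6 binds its receptor IL6RA together with gp130, which activates STAT3, while interleukin-1 acts through IL1R1 and NF-kB, and the factors C/EBP beta and delta join both on target promoters. SOCS3 feeds back on the gp130 receptor and so limits the response. In the mouse, serum amyloid A and serum amyloid P are the strongly induced proteins, whereas C-reactive protein, the main marker in people, responds little.

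Total counts per library ran between 22129092 and 51082317 in KO and between 25898171 and 40597491 in WT. Levels are given as CPM, the count of a gene relative to the size of its library, with sizes scaled by TMM. A1cf itself averaged 10.6 ± 1.55 CPM in KO and 50.9 ± 2.26 CPM in WT (SD, n = 6 each), without overlap. Hepatocyte markers summed to between 87172 and 110122 CPM in KO and between 94476 and 118207 CPM in WT, so the tissue label holds for every library. In whole liver, fewer cells of a type and less RNA per cell cannot be told apart.

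The promoters of 6 genes are printed because the levels of these genes set the patterns described below. A pair of serum amyloid A genes and an orosomucoid varied together. The others are both hepcidin genes, which did not rise with them, and a metallothionein. Sequences are from RefSeq (GRCm38.p6) and run 5′ to 3′ over 300 bases, 250 before the transcription start and 50 after it. Capitals mark a C/EBP motif (TTNNGNAA) in the Saa1, Saa2 and Orm2 promoters, a STAT motif (TTCNNNGAA) in the hepcidin promoters and a metal response motif (TGCACNC or TGCGCNC) in the Mt1 promoter, with both strands searched.
Saa1 promoter, chr7:46742931-46743230, minus strand: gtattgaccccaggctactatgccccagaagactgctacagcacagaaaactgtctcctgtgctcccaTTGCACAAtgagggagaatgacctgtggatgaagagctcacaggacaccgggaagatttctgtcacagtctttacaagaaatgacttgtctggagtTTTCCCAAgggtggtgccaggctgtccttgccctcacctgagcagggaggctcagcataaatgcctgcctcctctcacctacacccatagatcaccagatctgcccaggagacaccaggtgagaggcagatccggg
Saa2 promoter, chr7:46751583-46751882, plus strand: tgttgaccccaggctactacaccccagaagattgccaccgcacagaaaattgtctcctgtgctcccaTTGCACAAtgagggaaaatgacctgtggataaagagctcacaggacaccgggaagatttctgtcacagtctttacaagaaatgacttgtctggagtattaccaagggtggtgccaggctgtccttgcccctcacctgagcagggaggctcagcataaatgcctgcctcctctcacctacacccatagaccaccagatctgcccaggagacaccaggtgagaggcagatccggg
Orm2 promoter, chr4:63362199-63362498, plus strand: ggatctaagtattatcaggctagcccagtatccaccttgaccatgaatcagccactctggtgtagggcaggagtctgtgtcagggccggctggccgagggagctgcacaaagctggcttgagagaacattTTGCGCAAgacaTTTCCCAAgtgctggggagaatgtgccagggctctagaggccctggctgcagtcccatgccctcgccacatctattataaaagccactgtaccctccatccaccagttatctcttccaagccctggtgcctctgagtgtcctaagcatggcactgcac
Hamp promoter, chr7:30943980-30944279, minus strand: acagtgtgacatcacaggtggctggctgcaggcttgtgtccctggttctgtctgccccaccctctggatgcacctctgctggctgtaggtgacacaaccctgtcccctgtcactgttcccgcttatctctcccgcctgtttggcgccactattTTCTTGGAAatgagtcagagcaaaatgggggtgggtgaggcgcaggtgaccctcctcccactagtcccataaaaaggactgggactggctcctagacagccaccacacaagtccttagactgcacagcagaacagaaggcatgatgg
Hamp2 promoter, chr7:30924132-30924431, minus strand: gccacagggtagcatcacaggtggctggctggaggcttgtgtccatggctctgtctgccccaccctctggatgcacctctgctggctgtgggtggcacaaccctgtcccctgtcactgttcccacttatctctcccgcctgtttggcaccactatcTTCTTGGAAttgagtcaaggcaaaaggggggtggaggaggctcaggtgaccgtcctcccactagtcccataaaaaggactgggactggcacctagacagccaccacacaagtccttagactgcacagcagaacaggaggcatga
Mt1 promoter, chr8:94178839-94179138, plus strand: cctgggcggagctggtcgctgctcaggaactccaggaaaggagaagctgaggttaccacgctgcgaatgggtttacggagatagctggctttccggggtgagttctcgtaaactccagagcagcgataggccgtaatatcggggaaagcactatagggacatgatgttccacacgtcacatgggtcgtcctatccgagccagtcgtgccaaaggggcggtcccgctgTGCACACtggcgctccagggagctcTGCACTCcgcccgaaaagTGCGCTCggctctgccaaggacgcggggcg

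The Saa1 and Saa2 promoters were 96% identical and their transcripts 94.4% identical, while the promoters of Hamp and Hamp2 were 92.9% identical and their transcripts 94.6% identical. The table of promoters held 28 of the 34 genes, with 33 promoters in all, and Cd14, Cebpd, Fgl1, Hp, Lbp and Orm1 were the others. The STAT motif was present in 6 of the 33 promoters (18.2%), against 8.3% of all 32851 promoters, and these belonged to Apcs, Hamp, Hamp2, Itih4, Socs3 and Steap4. The C/EBP motif was present in 19 of 33 (57.6%), against 40.7% of all, and covered all 4 Saa genes, Orm2, Orm3, Lcn2, Hpx and Cp among 16 genes. An NF-kB motif was found in 3 promoters (9.09%), against 4.51% of all, those of Cxcl1, Il1r1 and Steap4, and in Il1r1 and Steap4 it overlapped a C/EBP motif. The metal response motif was found in 6 of 33 promoters (18.2%), against 25.7% of all. These matches describe the letters of the windows and were not tested against the levels.

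Saa1, the best known inducible acute phase transcript of mouse liver, divided the libraries into a high and a low set that cut across genotype. It stood at 75.3, 83.8, 3653, 1840.4, 17489 and 70.4 CPM in KO libraries 574, 584, 588, 591, 602 and 780, against 21.0, 8337, 6919.7, 65.0, 20.8 and 21.0 CPM in WT libraries 573, 590, 601, 776, 777 and 778. KO 588, KO 591, KO 602, WT 590 and WT 601 were thus high, the other 7 libraries were low, and none lay between 83.8 and 1840.4 CPM, a gap of 21.9-fold. The 5 high libraries are the ones whose titles carry the numbers 588 to 602. What the numbers stand for is not given in the sources used here. Among the 7 low libraries, the 3 KO libraries and WT 776 (65.0 to 83.8 CPM) stood apart from WT 573, WT 777 and WT 778 (20.8 to 21.0 CPM).

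The same 5 libraries were the 5 highest for 13 of the 34 genes: Saa1, which defined them, Saa2, Saa4, Orm1, Orm2, Orm3, Hp, Hpx, Apcs, Itih4, Lcn2, Lrg1 and Fgl1. This goes by rank alone, and some margins were narrow. The lowest of the 5 high libraries held 4965 CPM of Hp, 590 of Lrg1 and 849 of Fgl1. The highest of the low libraries held 4909.5, 541 and 786 CPM. Of all 13706 tested genes, 3.21% had these 5 libraries as their highest. In 7 more genes, Saa3, Itih3, Steap4, Cp, Mt1, Cxcl1 and Cebpb, they filled 4 of the 5 highest places. The share of all tested genes that meet this looser rule was not taken, so the 7 are given as a description only. In 0 of the 34 genes were they the 5 lowest, against 2.82% of all tested genes. Together the 34 transcripts took 11.01% of all counts in KO 602 and between 1.36% and 3.72% in the other KO libraries, against 6.31% in WT 590, 5.501% in WT 601 and between 1.23% and 1.76% in the other WT libraries. Of 7 marker lists, only that of neutrophils and monocytes had its 5 highest sums in the 5 high libraries. They were 10.8, 11.6 and 24.7 CPM in KO 588, KO 591 and KO 602 and 8.57 and 7.55 CPM in WT 590 and WT 601. WT 776 was next at 7.504 CPM. Of these 10 markers 4 were abundant enough to test, and Ly6g, Mpo and Cxcr2 were at 0 in some libraries. Kupffer cell and macrophage markers had 3 of their 5 highest sums there, at 400, 327 and 491 CPM in KO 588, KO 591 and KO 602. In WT 590 and WT 601 they summed to 193 and 197 CPM. The part of either cell type in the result was not tested.

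**Figure D1:**
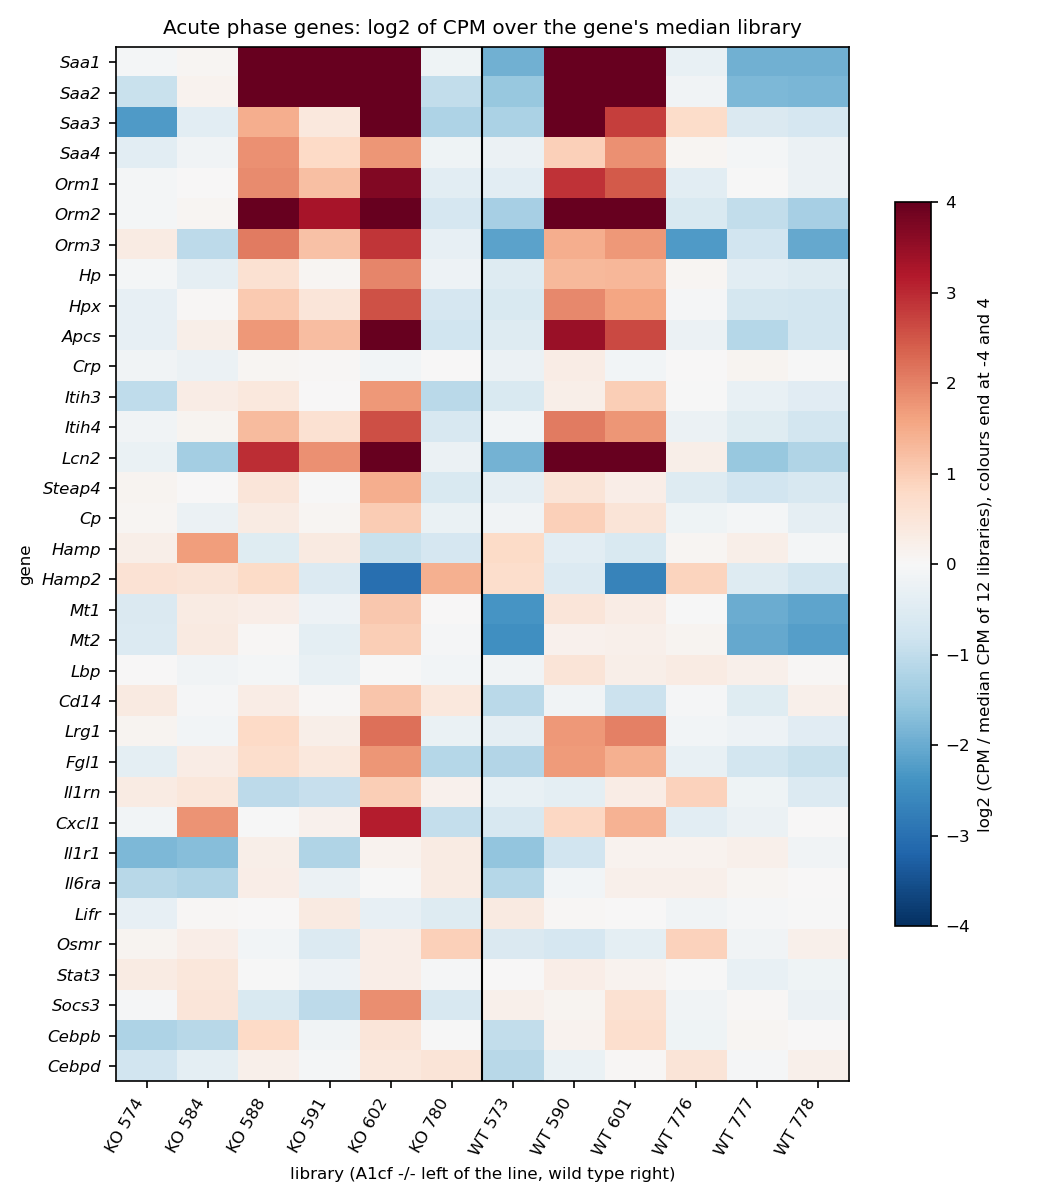
Each row is a gene and each column a library, with KO left of the line and WT right of it; colour gives log2 of the CPM over the gene's median library, red above it and blue below it. Columns KO 588, KO 591, KO 602, WT 590 and WT 601 are red for most secreted proteins in the upper rows, while the receptors and factors in the lower rows are paler.

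The serum amyloid A genes lie side by side on chromosome 7 (mm10): Saa3 at 46711998 to 46715676, Saa4 at 46728017 to 46732543, Saa1 at 46740501 to 46742980 and Saa2 at 46751833 to 46754314. Saa2, which like Saa1 encodes an apolipoprotein carried on HDL, ranged between 14.97 and 17474 CPM in KO (median 689) and between 8.26 and 6960.5 CPM in WT (median 18.5). It spanned 2115-fold between the lowest and the highest library, the widest span among the 34 genes, and its spread within genotype was the largest of all tested genes. In the order of the KO libraries above, Saa2 supplied 17.5%, 28.0%, 40.2%, 42.2%, 49.98% and 17.5% of the summed Saa1 and Saa2 counts, against 32.9%, 45.5%, 44.9%, 29.1%, 29.0% and 28.2% in the WT libraries. Its share was thus at least 40.2% in the 5 libraries with high Saa1 and at most 32.9% in the other 7. Reads that map to both copies may have been lost or split, so the shares are uncertain.

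Saa3, a form also made by macrophages, lay between 1.87 and 1371 CPM in KO (median 9.28) and between 3.69 and 309 CPM in WT (median 10.4), and only KO 602, WT 590 and WT 601 were far above the rest. Saa4, the constitutive form, lay between 213 and 1007 CPM in KO and between 240.3 and 1009 CPM in WT, a span of 4.74-fold. The ratio of Saa1 to Saa4 counts was 0.354, 0.329, 3.63, 3.77, 18.4 and 0.280 in the KO libraries in the same order, against 0.0873, 15.2, 6.86, 0.220, 0.0772 and 0.0868 in the WT libraries. Saa1 counts therefore exceeded those of Saa4 in exactly the 5 high libraries. The fitted log2 fold change of Saa1 was 0.59 (SE 1.83, adjusted p = 0.891; this and the other p-values are from edgeR unless DESeq2 is named). Without KO 602 it was -1.16, so the direction rests on that library. Summing Saa1 and Saa2 gave 0.67, and -1.28 without KO 602.

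**Figure D2:**
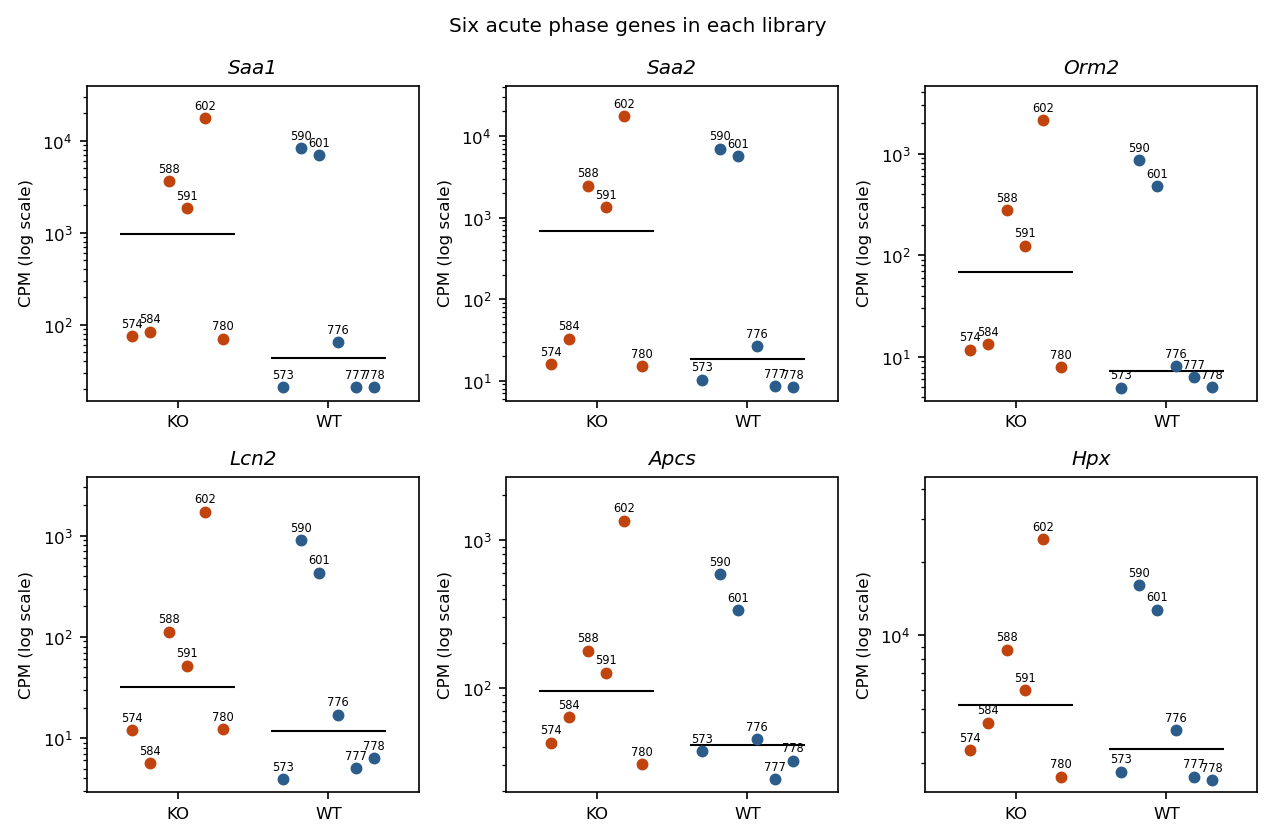
CPM on a log axis of 6 acute phase genes in each KO library (left) and WT library (right), labelled by number; the bar is the group median. In Saa1 the high libraries lie between 1840.4 and 17489 CPM and the low ones between 20.8 and 83.8 CPM in both genotypes, and the same 5 libraries are highest in the other panels.

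The orosomucoids, plasma proteins that bind drugs and lipids, are clustered on chromosome 4, with Orm1 at 63344560 to 63348163, Orm3 at 63356162 to 63359511 and Orm2 at 63362449 to 63365878. Orm1, the main one, lay between 342 and 5959.7 CPM in KO (median 762) and between 342 and 3416 CPM in WT (median 424). Orm2 lay between 7.86 and 2131 CPM in KO (median 68.6) and between 4.98 and 861 CPM in WT (median 7.20), a 428-fold span. The share of orosomucoid counts taken by Orm2 was 13.8%, 10.4% and 26.2% in KO 588, KO 591 and KO 602 and 2.21% to 2.72% in the other KO libraries, against 20.0% and 15.9% in WT 590 and WT 601 and 1.25% to 2.27% in the other WT libraries. Orm2 thus made up a larger part of the family in each high library than in any low one. Orm3 lay between 3.42 and 52.2 CPM in KO (median 12.5) and between 1.47 and 23.5 CPM in WT (median 2.97), with a log2 fold change of 1.18 (SE 0.88, adjusted p = 0.480). The 3 transcripts are 86.5% to 91% identical, so counts may have moved between them.

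Haptoglobin (Hp) captures free haemoglobin and haemopexin (Hpx) captures haem. Hp ranged between 3614 and 18079 CPM in KO (median 4696) and between 3252 and 11774 CPM in WT (median 4189.8). Hpx ranged between 2636 and 24800.2 CPM in KO (median 5178) and between 2544 and 16039.8 CPM in WT (median 3428). Both were high in every library and spanned only 5.56-fold and 9.75-fold. As CPM per kilobase of exonic length, Hp (median 3476 over the 12 libraries) and Hpx (2872) led the 34 genes in their median level. At their highest, in KO 602, Saa1 (28908) and Saa2 (28645) lay above Hpx (16780) and Hp (13462) on that scale.

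The pentraxins behaved unlike each other. Apcs, which encodes serum amyloid P, lay between 30.5 and 1351 CPM in KO (median 95.2) and between 24.1 and 585 CPM in WT (median 41.2), with the same 5 libraries highest. Crp, C-reactive protein, lay between 262 and 324 CPM in KO and between 263 and 378 CPM in WT, a span of 1.44-fold and the narrowest among the 34 genes. Its log2 fold change was -0.08 (SE 0.10, adjusted p = 0.681).

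Itih4 and Itih3, heavy chains of the inter-alpha-trypsin inhibitor family, are neighbours on chromosome 14. Itih4 lay between 1064 and 9736 CPM in KO and between 983 and 6909 CPM in WT, and Itih3 between 660.2 and 4646 CPM in KO and between 921 and 2742 CPM in WT. Lcn2, the siderophore-binding lipocalin that keeps iron from bacteria, lay between 5.65 and 1730.4 CPM in KO (median 32.1) and between 3.93 and 904 CPM in WT (median 11.7), a 439.8-fold span. Lrg1, a leucine-rich plasma glycoprotein, lay between 417 and 2327 CPM in KO and between 368 and 2027 CPM in WT. Fgl1, a fibrinogen-like protein secreted by hepatocytes, lay between 285 and 2151 CPM in KO and between 285 and 2079 CPM in WT. KO 602 was the highest library for these genes, and the genotypes overlapped in each.

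Genes of iron, copper and zinc handling did not share 1 pattern. Steap4, a metalloreductase, lay between 58.0 and 245 CPM in KO (median 92.1) and between 52.9 and 126 CPM in WT (median 65.5), with a log2 fold change of 0.56 (SE 0.34, adjusted p = 0.372). Ceruloplasmin (Cp), a copper-carrying ferroxidase, lay between 896 and 2165 CPM in KO and between 830.1 and 2094 CPM in WT. Hepcidin (Hamp), the hormone that closes ferroportin and that interleukin-6 is known to induce, had 4 of its 5 lowest values in the libraries with high Saa1. It stood at 763, 2049, 464, 829.6, 348 and 407 CPM in KO libraries 574, 584, 588, 591, 602 and 780, against 1108, 489.6, 429.9, 684, 761 and 617 CPM in WT libraries 573, 590, 601, 776, 777 and 778. The 2049 CPM of KO 584 decided the direction: the log2 fold change was 0.25 (SE 0.42, adjusted p = 0.779) with it and -0.28 without it. Hamp2, the second mouse hepcidin gene, was far lower, between 0.480 and 10.5 CPM in KO and between 0.616 and 7.17 CPM in WT. It also had 4 of its 5 lowest values in the libraries with high Saa1. How many of all tested genes had 4 of their 5 lowest values there was not counted. The printed Hamp and Hamp2 promoters carry the same STAT letters, at positions -97 to -89 and -94 to -86 from the start.

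Metallothioneins bind zinc and copper and are induced by metals, glucocorticoids and interleukin-6. Mt1 stood at 412, 773, 741, 537, 1302 and 626 CPM in KO libraries 574, 584, 588, 591, 602 and 780, against 121, 865, 756, 608, 157 and 142 CPM in WT libraries 573, 590, 601, 776, 777 and 778. WT 573, WT 777 and WT 778 lay below every other library. Mt2 ranged between 333 and 963 CPM in KO (median 491) and between 89.5 and 561 CPM in WT (median 321), and supplied between 39.1% and 46.3% of the summed metallothionein counts in every library. The log2 fold changes were 0.73 for Mt1 (SE 0.53, adjusted p = 0.462) and 0.75 for Mt2 (SE 0.52, adjusted p = 0.443). The 3 lowest libraries were these same WT libraries for 6 of the 34 genes, Saa1, Saa2, Orm2, Hp, Mt1 and Mt2, against 1.32% of all tested genes. This count was chosen after the values were seen. The low values of Saa1 defined the set of 3, so Saa1 is among the 6 by definition, and Saa2 is its close copy. The 6 are therefore given as a description only. The 2 genes lie together on chromosome 8, Mt2 at 94172618 to 94173567 and Mt1 at 94179089 to 94180325.

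**Figure D3:**
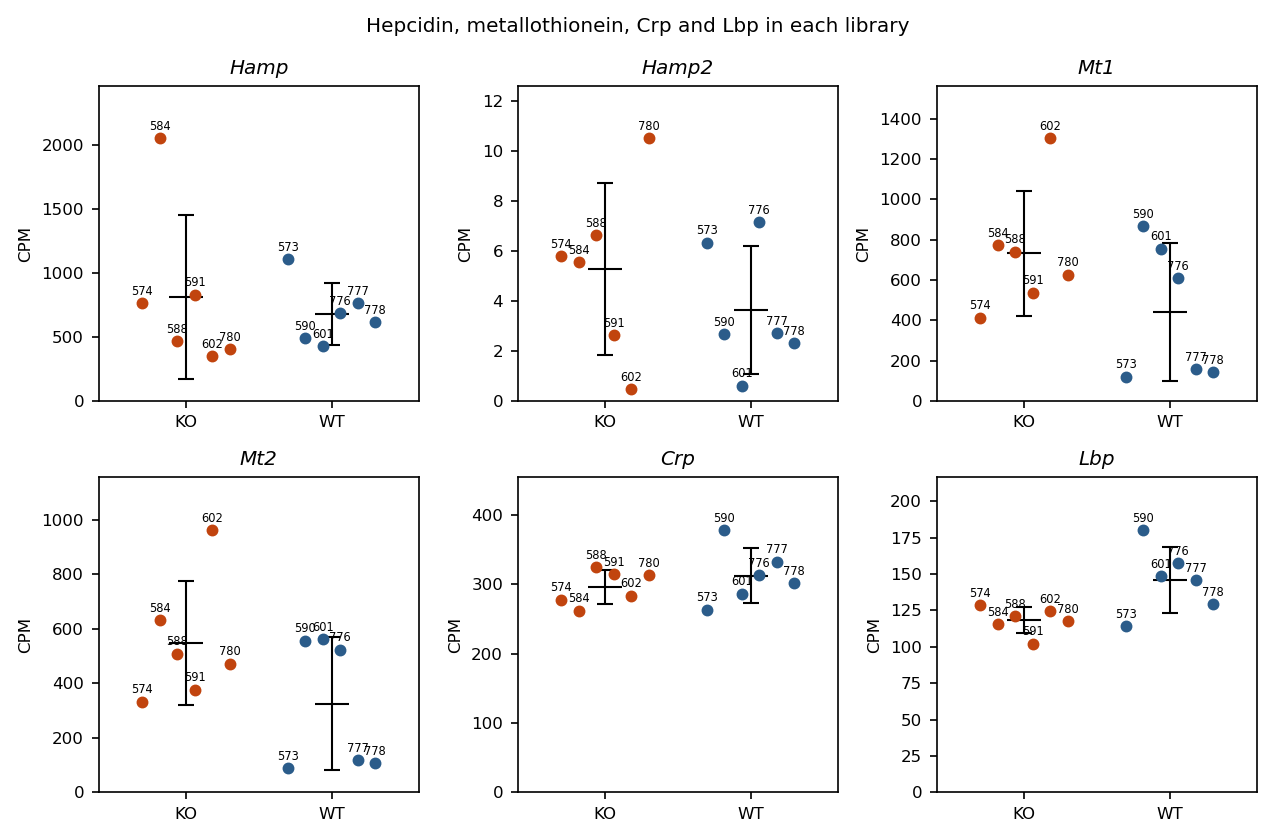
CPM on linear axes of Hamp, Hamp2, Mt1, Mt2, Crp and Lbp in each KO library (left) and WT library (right), with mean and SD bars (n = 6 each). Mt1 shows WT 573, WT 777 and WT 778 between 121 and 157 CPM below all other libraries, and Hamp shows KO 584 at 2049 CPM above all others.

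The proteins that sense bacterial lipopolysaccharide gave the smallest p-values among the 34 genes. Lbp, the plasma protein that carries lipopolysaccharide, lay between 102 and 129 CPM in KO (mean 118 ± 9.14) and between 114 and 180.3 CPM in WT (mean 146 ± 22.8; SD, n = 6 each). Its log2 fold change was -0.30 (SE 0.10, unadjusted p = 0.0107, adjusted p = 0.115), and of the WT libraries WT 573 alone lay within the range of KO. Cd14, the receptor that takes lipopolysaccharide from it, lay between 1.93 and 4.32 CPM in KO (mean 2.67 ± 0.861) and between 0.947 and 2.29 CPM in WT (mean 1.59 ± 0.519). Its log2 fold change was 0.75 (SE 0.25, unadjusted p = 0.00935, adjusted p = 0.108). DESeq2 called Cd14 (adjusted p = 0.0460), as did a fit with the 3 runs of library numbers as a covariate (log2 fold change 0.91, adjusted p = 0.0339), which was chosen after seeing the data. In that fit 1361 of the 13706 tested genes passed, against 523 with genotype alone. Over all settings the adjusted p of Cd14 lay between 0.0339 and 0.367, the highest without the libraries numbered 588 to 602. Cd14 is abundant in macrophages, and the summed Kupffer cell and macrophage markers lay between 138 and 491 CPM in KO and between 134 and 222 CPM in WT. All 11 of those markers were above 0 in log2 fold change and 0 were called, none was at 0 in any library, and their part in the Cd14 result was not tested.

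Most of the cytokine ligands were close to the limit of detection, but not all. Il18, for example, had between 134 and 541 counts in KO libraries and between 136 and 319 counts in WT libraries. In CPM it lay between 9.16 and 11.7 in the 5 libraries with high Saa1 and between 4.98 and 8.03 in the other 7. It was the only tested ligand with these 5 libraries as its highest, a pattern of 3.21% of all tested genes. Of 16 cytokine ligands 6 could be tested and 0 passed. Il6 had between 0 and 6 counts in KO libraries and between 0 and 3 counts in WT libraries, with 0 counts in KO 602, WT 590, WT 601, WT 776 and WT 778. A count of 0 allows up to 3 counts, which is 0.107 to 0.131 CPM at the depths of these libraries. Il1a, interleukin-1 alpha, averaged 3.72 ± 1.34 CPM in KO and 1.97 ± 0.853 CPM in WT (log2 fold change 0.91, adjusted p = 0.124), and Il33, an alarmin, averaged 1.36 ± 0.327 CPM in KO and 1.09 ± 0.219 CPM in WT (0.30, adjusted p = 0.409). Cxcl1, a neutrophil-attracting chemokine, lay between 5.26 and 89.9 CPM in KO (median 10.7) and between 6.53 and 26.8 CPM in WT (median 9.49), with a log2 fold change of 1.05 (SE 0.70, adjusted p = 0.421). Il1rn, the interleukin-1 receptor antagonist, lay between 4.41 and 18.1 CPM in KO and between 6.30 and 17.5 CPM in WT.

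Among the receptors, Il1r1 and Il6ra followed another set of libraries. Il6ra, the interleukin-6 receptor chain, stood at 64.6, 60.8, 167, 120.0, 139 and 177 CPM in KO libraries 574, 584, 588, 591, 602 and 780, against 63.6, 130.5, 161, 162, 148 and 142 CPM in WT libraries 573, 590, 601, 776, 777 and 778. WT 573, KO 574 and KO 584 were the 3 lowest and held at most 64.6 CPM, while every other library held at least 120.0 CPM. Il1r1, the signalling receptor of interleukin-1, lay between 25.3 and 110.3 CPM in KO and between 29.5 and 102 CPM in WT. The same 3 libraries were the lowest for 5 of the 34 genes, Crp, Il1r1, Il6ra, Cebpb and Cebpd, against 1.43% of all tested genes. This count was also chosen after the values were seen. These libraries carry the lowest numbers, 573 to 584. By rank alone Crp and Cebpd belong here, with narrow gaps. The highest of the 3 held 278 CPM of Crp and 7.06 CPM of Cebpd, and the next library 284 and 7.77 CPM. Lifr, the receptor of leukaemia inhibitory factor, lay between 88.5 and 163 CPM in KO and between 115 and 162 CPM in WT (log2 fold change -0.14, SE 0.14, adjusted p = 0.594), and Osmr, the oncostatin M receptor, between 2.95 and 8.20 CPM in KO and between 2.71 and 8.09 CPM in WT (0.22, SE 0.29, adjusted p = 0.714).

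None of the transcription factors, nor the feedback inhibitor, had the 5 high libraries as its 5 highest. Stat3, which carries the gp130 signal to the nucleus, lay between 96.5 and 153 CPM in KO (median 123) and between 90.7 and 133 CPM in WT (median 112), with a log2 fold change of 0.15 (SE 0.12, adjusted p = 0.523). Socs3, a direct STAT3 target that shuts the receptor off, lay between 4.42 and 33.2 CPM in KO (median 7.47) and between 7.80 and 14.1 CPM in WT (median 9.67), and KO 602 alone exceeded the 14.1 CPM of WT 601. KO 588 and KO 591, with 3653 and 1840.4 CPM of Saa1, held 6.00 and 4.42 CPM of Socs3, within the range of the low libraries or below it. Cebpb lay between 12.6 and 50.8 CPM in KO and between 14.96 and 46.7 CPM in WT. Cebpd lay between 5.48 and 13.4 CPM in KO and between 4.35 and 13.2 CPM in WT.

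**Figure D4:**
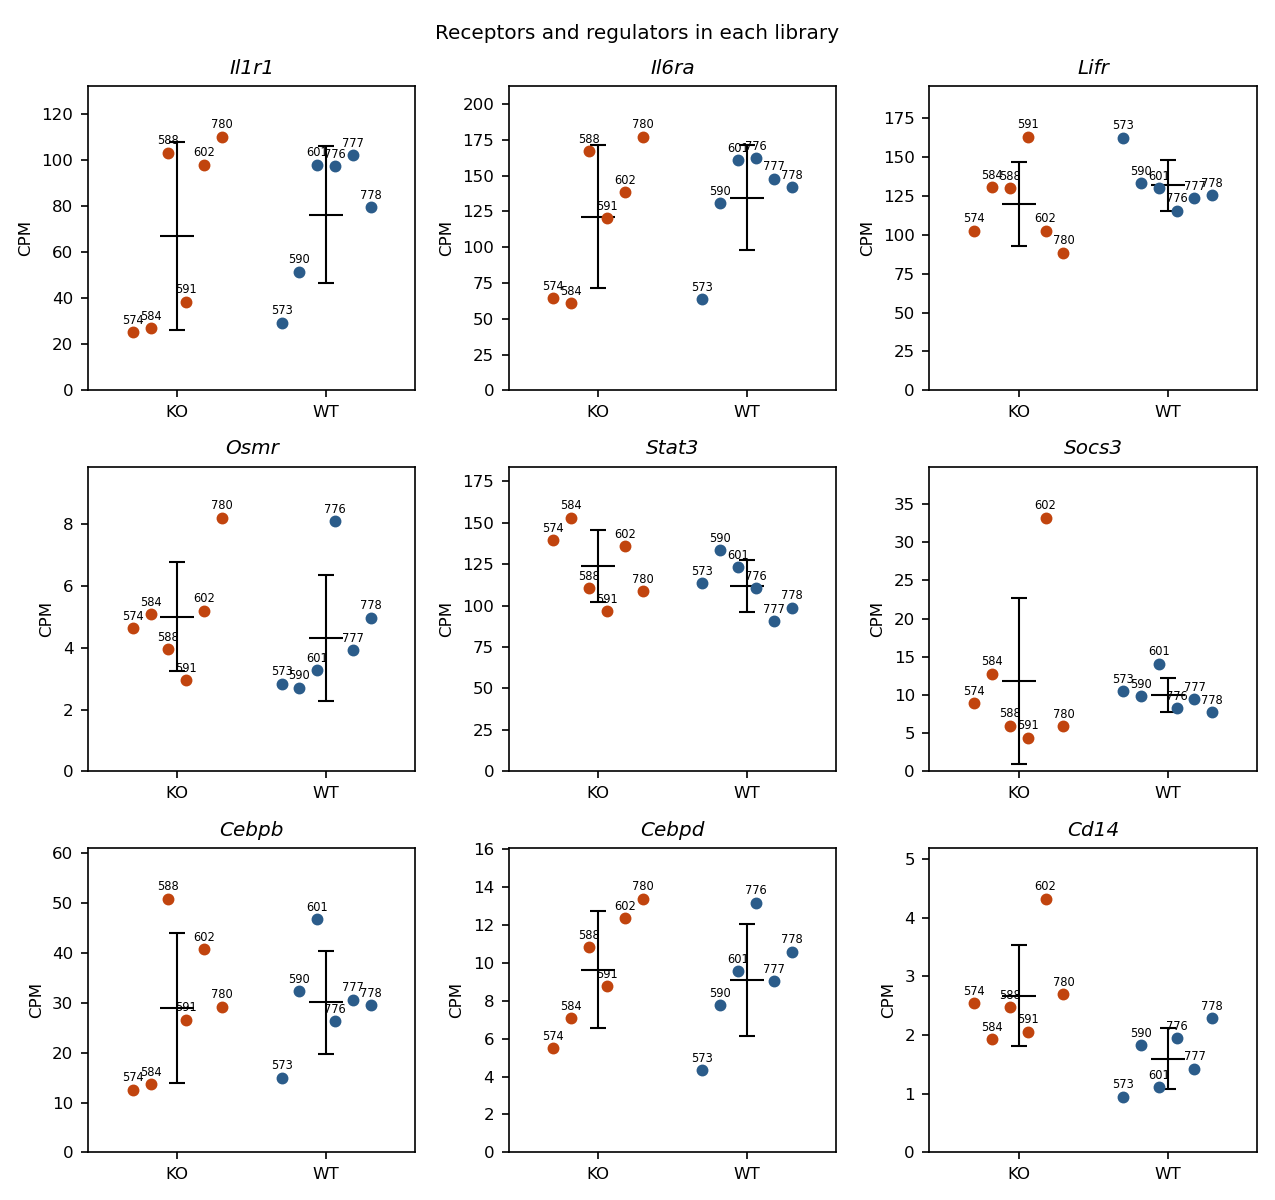
CPM on linear axes of receptors, factors, the inhibitor Socs3 and Cd14 in each KO library (left) and WT library (right), with mean and SD bars (n = 6 each). In Il6ra, KO 574, KO 584 and WT 573 lie at 64.6 CPM or less, in Socs3 KO 602 stands alone at 33.2 CPM, and in Cd14 the KO libraries lie mostly above the WT libraries.

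Between genotypes, 0 of the 34 genes passed an adjusted p of 0.05, against 3.82% of all tested genes, and 2 had an unadjusted p under 0.05 (Cd14 and Lbp), against 21.2%. DESeq2 called 1 of the 33 to which it gave an adjusted p, Saa3 having none. In 0 of the 34 was every KO library on 1 side of every WT library, against 3.3% of all tested genes. The log2 fold change was above 0 in 27 genes and below 0 in 7, with a median of 0.26 over the 34 and 0.01 over all tested genes. Without KO 602, 15 of the 34 changed sign. The fit was much less precise here than for most genes: the median standard error was 0.50 on the log2 scale, against 0.14 over all tested genes. The spread within genotype of 13 of the 34 ranked in the top 1% of all tested genes, and that of 26 in the top 10%. Of 7 hepatocyte markers, 0 were above 0 in log2 fold change and 0 were called (median -0.14). Markers of other cells were mostly above 0. Stellate cell markers summed to between 256 and 367 CPM in KO and between 158 and 284 CPM in WT (11 of 11 above 0, 2 called), and endothelial markers to between 264 and 318 CPM in KO and between 174 and 349 CPM in WT (10 of 10 above 0, 1 called). Lymphocyte markers summed to between 7.65 and 10.4 CPM in KO and between 4.47 and 10.3 CPM in WT, and fat markers to between 1.35 and 34.2 CPM in KO and between 0.110 and 9.40 CPM in WT, with Klrb1c, Adipoq and Plin1 at 0 in some libraries. The part of these cells in the comparison of the 34 genes was not tested.

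**Figure D5:**
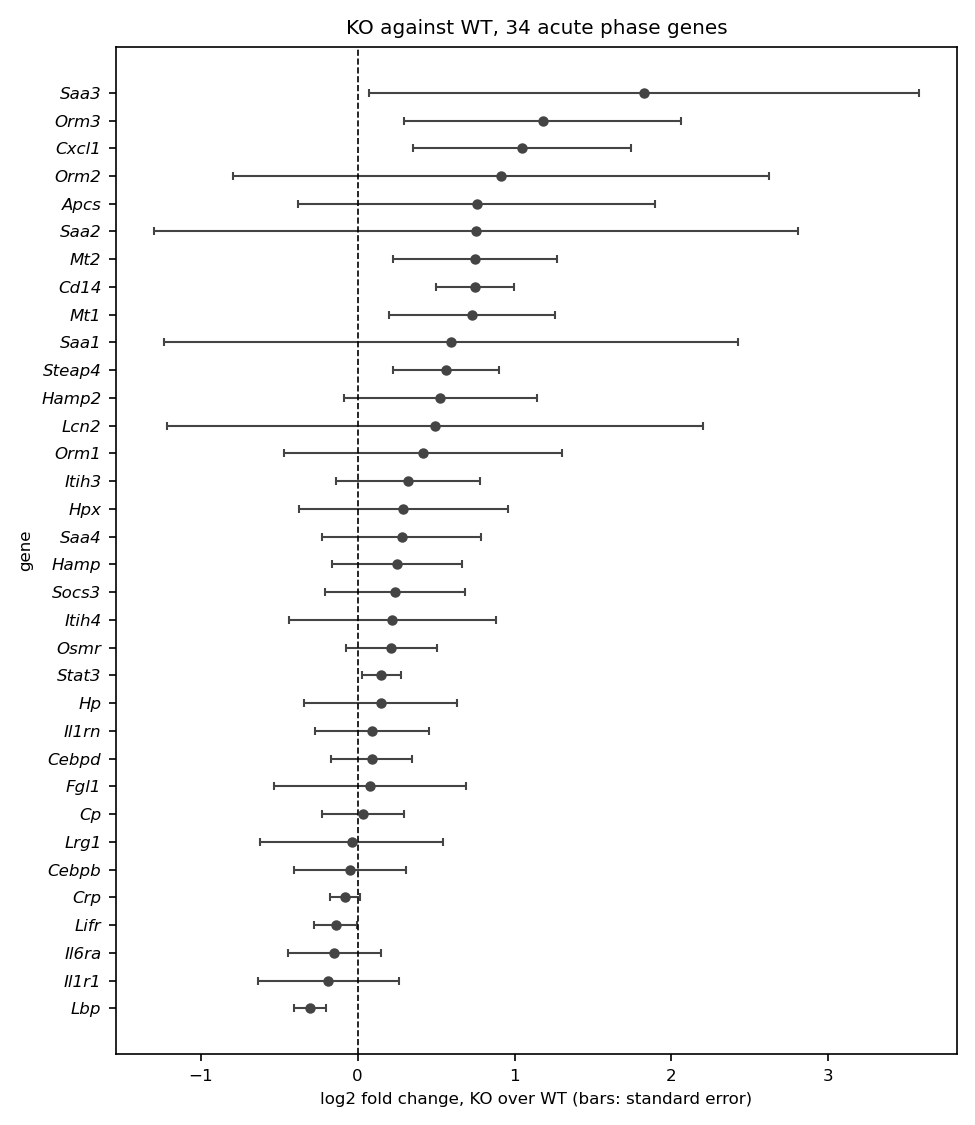
Log2 fold change of KO over WT for the 34 genes, with standard error bars, in order of size. The estimates run between -0.30 (Lbp) and 1.83 (Saa3), and the bars are widest in Saa2, with a standard error of 2.05.

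Differences within each run of library numbers, of the mean log2 CPM in KO over that in WT, were as follows. For Saa1 the difference was 1.92 in numbers 573 to 584 (2 KO, 1 WT), -0.63 in 588 to 602 (3 KO, 2 WT) and 1.202 in 776 to 780 (1 KO, 3 WT). For Mt1 it was 2.22, -0.01 and 1.39 in the same runs, so the higher KO level did not hold in 588 to 602. Cd14 was higher in KO in each run, by 1.17, 0.94 and 0.52. Lbp gave 0.10, -0.50 and -0.29. These differences were not tested run by run. In the fit with the 3 runs as a covariate, chosen after seeing the data, the log2 fold change was 0.71 for Saa1 (adjusted p = 0.506), 0.84 for Mt1 (adjusted p = 0.339) and -0.30 for Lbp (adjusted p = 0.0894).

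Outside the 34, 3 genes of the 9 related lists passed the test between genotypes, 1 each in 3 lists. Of all tested genes 3.82% passed, and none of the lists is read as standing apart from that share. In the list of receptor and JAK-STAT signalling genes, 0 of 19 tested rose and 1 fell (median log2 fold change 0.21). Il1rap, the co-receptor that IL1R1 needs to signal, fell to 88.0 ± 10.96 CPM in KO, against 123.7 ± 10.9 CPM in WT (log2 fold change -0.49, SE 0.09, adjusted p = 0.0107), with every KO library (70.1 to 98.4 CPM) below every WT library (111 to 143 CPM). In the list of interleukin-1, Toll-like receptor and NF-kB signalling, 0 of 25 rose and 1 fell (median 0.08). Sigirr, an inhibitory member of the interleukin-1 receptor family, fell to 11.1 ± 1.86 CPM in KO, against 16.4 ± 1.55 CPM in WT (log2 fold change -0.57, SE 0.11, adjusted p = 0.0124), and the genotypes touched without overlapping (8.999 to 13.79 CPM in KO and 13.84 to 18.6 CPM in WT). Among 12 metal handling genes 1 rose and 0 fell (median 0.03): Slc39a5, a zinc importer, reached 2.81 ± 0.399 CPM in KO, against 1.57 ± 0.286 CPM in WT (log2 fold change 0.83, SE 0.16, adjusted p = 0.0110). In the libraries numbered 573 to 602 alone, where 57 of all genes passed, none of these 3 calls held (adjusted p = 0.104 for Il1rap, 0.165 for Sigirr and 0.144 for Slc39a5), and without the libraries numbered 588 to 602 that of Slc39a5 was lost (adjusted p = 0.0789).

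In the other lists 0 genes passed in either direction. Of 29 other acute phase proteins, the median log2 fold change was 0.01. The largest evidence there was in Slc39a14, a zinc and iron importer (0.29, adjusted p = 0.160), and in Tfpi, an inhibitor of coagulation (0.32, adjusted p = 0.227). The 18 genes listed as negative acute phase proteins, a term for proteins that fall in inflammation, had a median of -0.13. Among them Mbl2, the mannose-binding lectin, was at -0.52 (adjusted p = 0.128) and Gc, the vitamin D carrier, at -0.35 (adjusted p = 0.192). The listed genes did not all fall where Saa1 was high, since Trf and Fetub had those libraries as their highest. The 19 genes known as interleukin-6 and STAT3 targets had a median of 0.04, with Mcl1 at 0.42 (adjusted p = 0.0716) and Fos at 0.96 (adjusted p = 0.182). The 20 hepcidin regulators had a median of -0.01, with Smad5, which carries BMP signals to the hepcidin promoter, at 0.22 (adjusted p = 0.139) and Tmprss6, a protease that restrains hepcidin, at -0.27 (adjusted p = 0.155). The 12 glucocorticoid genes had a median of -0.06, with Hsd11b1, which regenerates the active hormone, at -0.68 (adjusted p = 0.0617) and Tdo2 at -0.37 (adjusted p = 0.349). Il6st, which encodes gp130 and was picked out after its values were seen, averaged 123 ± 14.01 CPM in KO and 98.4 ± 7.57 CPM in WT (log2 fold change 0.32, adjusted p = 0.0534).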

How the data were processed

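Liver RNA of 6 KO and 6 WT mice was prepared with miRNeasy and TruSeq RNA kits, per the labels' protocols, and read on an Illumina HiSeq instrument. Per the file headers, the authors ran featureCounts 1.5.0-p2 on exons of GENCODE M8 and deposited a raw fragment count for each gene name. The command counts read pairs and sets no option for strand, duplicates or reads mapping to several places, so close copies may lose or exchange reads. STAR, DESeq2 and mm10 appear in the submitters' processing notes without versions. The other deposited value per gene used here is its exonic length, for levels per kilobase.

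The count analysis used R 4.3.3 with edgeR 4.0.16, limma 3.58.1 and, as an alternative, DESeq2 1.42.0. Genes were kept by filterByExpr (minimum count 10), scaled by TMM and compared by the robust quasi-likelihood test with genotype as the only term, with Benjamini-Hochberg adjustment across 13706 genes (threshold 0.05). The standard error is the size of the log2 fold change over the square root of F. Log2 CPM used a prior count of 2. Floors (3 counts) cover counting error only. The steps were tested on simulated data.

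The 34 genes and the 9 gene lists were chosen with earlier results of these data known. All 34 are named. From each list up to 3 called genes with the smallest p are named, or, where 0 passed, the 2 with the smallest p as values, and the 10 genes most like Saa1 are named. One result of the lists is not reported here. A planned correlation of each gene with Saa1 is not given, because the libraries fall into separate clusters with fewer than 6 in all but the low one, which itself divides. That decision was made after the values were seen, since the widest gap, 45.9% of the range, was a little under the planned limit. Other settings were size factors, filters, tools, library number ranges and each library left out. The covariate of 3 number ranges and the fit without libraries 588 to 602 were added after seeing the data.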

Additional observations from a re-analysis of the deposited data

Results flagged for a closer look

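In each genotype the highest and lowest library of every named gene was compared with the rest, in 100 groups, and 3 libraries stood apart by Dixon's ratio, where chance alone flags about 1 in 20 groups. WT 573 held 63.55 CPM of Il6ra, the lowest WT value, with the next WT library at 130 CPM. KO 602 held 1.31 CPM of Il1a, the lowest KO value, with the next KO library at 3.20 CPM. WT 601 held 23.52 CPM of Smad5, the lowest WT value, with the next at 25.5 CPM.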

How the results depend on the processing

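Beside the fit with genotype alone, 22 settings were run. The number of genes called (523) was 1175 with DESeq2, 57 in the libraries numbered 573 to 602, 240 without the libraries numbered 588 to 602, 1361 with the 3 number ranges as a covariate, and 266 (without WT 777) to 638 (without WT 590) with 1 library left out. Of the 34 genes, 0 passed in every setting but 2: 1 passed with DESeq2, which gave an adjusted p to 33 of them and none to Saa3, and 1 with the 3 number ranges, Cd14 in both. With each library left out, 0 of the 34 passed. The fold changes that turned are given on the log2 scale, and none was called. In the libraries numbered 573 to 602, Saa1 was -0.13, Saa1 with Saa2 -0.0575 and the summed orosomucoids -0.0464. With the 2 number ranges (573 to 602 and 776 to 780) as a covariate the summed orosomucoids were -0.0929, and with 3 ranges Il6ra was 0.0465. Saa3 was -0.11 with limma-voom and -0.86 without the libraries numbered 588 to 602. With 1 library left out, Saa1 ranged from -1.16 to 1.46, Saa3 from -2.74 to 3.70, Saa1 with Saa2 from -1.28 to 1.54, the summed orosomucoids from -0.71 to 1.203, Hamp from -0.28 to 0.44 and Hamp with Hamp2 from -0.27 to 0.44. The low ends came without KO 602, or without KO 584 for the hepcidins. Over all 34 genes, the sign differed in 15 without KO 602, 11 with the 2 number ranges, 9 in libraries 573 to 602 and 8 with the 3 ranges. The cause was not tested. The 13 genes with the same 5 highest libraries stayed 13 under every scaling tried. The planned correlations with Saa1, and so their alternatives, were not run. No paired analysis was possible because the genotypes share no library number. Depth limits what can be said of Il6, at 0 to 6 counts.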

Other observations

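By the likeness of log2 CPM over the 12 libraries (Pearson's r, not printed because the libraries form clusters), the 10 genes outside the 34 nearest to Saa1 were Cyb561, Hc, C8a, Cpb2, Prg4, Wfdc21, Rplp1, Fam25c, C2 and Tmem176a, and each had the same 5 highest libraries. Hc, complement component C5, lay between 1089 and 1664 CPM in KO 588, KO 591, KO 602, WT 590 and WT 601 and between 591 and 893 CPM in the other 7. C8a, a chain of complement C8, lay between 786 and 1244 CPM against 394 to 642 CPM, and C2 between 50.6 and 67.4 CPM against 31.2 to 40.5 CPM. Cpb2, the carboxypeptidase that slows clot lysis, lay between 301 and 777 CPM against 172 to 229 CPM. Prg4, a secreted lubricating proteoglycan, lay between 51.8 and 103 CPM against 11.6 to 21.1 CPM. These values come from the ranking that chose the genes and carry no test.

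Among the other acute phase proteins, Serpina3n, Serpina3m, C4b, Plg, Ambp and Serpina10 had these 5 libraries as their highest. So did Trf and Fetub of the 18 genes listed as negative acute phase proteins. Serpina3n, a protease inhibitor, reached 3518 CPM in KO 602 and 3255 CPM in WT 590, against 487 CPM in KO 584 and 488 CPM in WT 778, the lowest of each genotype. The fibrinogen chain gene Fga was highest in KO 602 (6180.1 CPM) among KO libraries and in WT 590 (8532 CPM) among WT libraries, while KO 591 (2797 CPM) lay near the lowest. Id1, a BMP target, and Irak2, an interleukin-1 receptor kinase, had the 5 libraries as their lowest. Id1 lay between 6.81 and 14.1 CPM in KO and between 3.74 and 36.0 CPM in WT.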
